A study of Mus musculus with 9 samples.

Results

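Small leucine-rich proteoglycans (SLRPs) are secreted matrix proteins built from a curved stack of leucine-rich repeats, most of which carry glycosaminoglycan chains. Transcripts of 8 of them, Bgn, Dcn, Aspn, Lum, Fmod, Prelp, Omd and Ogn, were followed in hair follicle bulge stem cells of mice fed without limit or on a restricted diet. The genes were chosen by name from the gene family of Bgn, with the difference of Bgn between the diets in these same libraries already known, so the diet contrast of the members is given as a description, with no p-value. Where a member is said to have passed a threshold, that only places it in the fit over all genes and supports nothing. All 8 were found among the 35006 gene symbols listed, and 5 of them passed the filter on low counts that left 15447 genes. Lum, Omd and Ogn did not pass.

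The cells were sorted by flow cytometry on CD34 and alpha6 integrin from the skin of C57BL/6J mice that were housed singly. In the ad libitum group (AL, 5 libraries) food was unlimited. In the dietary restriction group (DR, 4 libraries) mice received each day 70% of the intake of AL mice of matched weight and gender. Cells of 3 mice were pooled per group, and the labels do not say whether each library came from a pool of its own, so a p-value here speaks of library-to-library spread, part of which may be technical. The labels do not give age, irradiation state, hair cycle stage or batch, nor which of the named animal facilities a library came from.

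In connective tissue these proteins coat collagen fibrils and set their width and spacing. Class I members (biglycan, decorin and asporin) carry chondroitin or dermatan sulfate or, in asporin, a run of aspartates in its place. Class II members (lumican, fibromodulin, PRELP and osteomodulin) tend to carry keratan sulfate and sulfated tyrosines, and osteoglycin belongs to class III. Several also bind growth factors of the TGF-beta family or surface receptors. In skin, decorin and lumican are classic products of dermal fibroblasts, whereas the bulge is an epithelium that rests on a basement membrane.

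Library totals ran from 26119459 to 33559312 gene counts, so 1 read was worth 0.0272 to 0.0376 CPM, the unit used here for counts scaled to library size. Transcripts of the sorted cell type were abundant, with Krt15 at 7937 to 14422 CPM, Cd34 at 414 to 2041 CPM and Itga6 at 400.4 to 518 CPM over all libraries. Summed marker levels in AL and DR were 353 to 405 and 194 to 284 CPM for dermal fibroblasts, 98.8 to 119 and 70.1 to 85.2 CPM for dermal papilla, and 23.6 to 38.4 and 8.76 to 21.8 CPM for dermal sheath and smooth muscle. Those of the bulge were 34549 to 51066 and 25141 to 27699 CPM, and those of hair germ and outer root sheath 2388 to 3646 and 1894 to 2817 CPM. Melanocyte markers summed to 112.5 to 231.5 and 125 to 178 CPM, endothelial markers to 3.35 to 42.6 and 9.09 to 84.3 CPM, and immune markers to 16.8 to 54.4 and 22.1 to 76.9 CPM. Schwann cell markers summed to 79.8 to 148 and 78.3 to 98.7 CPM, and adipocyte markers to 10.1 to 26.6 and 28.9 to 72.7 CPM. Several of these sums were carried by few genes. Mitf gave 100 to 223 CPM of the melanocyte sum in AL and 118 to 169 in DR. Tyr and Mlana stayed at 0.217 CPM or less. In AL, Trps1 gave 67.2 to 87.3 CPM of the papilla sum, and Myl9 15.7 to 28.4 CPM of that for sheath and smooth muscle. Ngfr, Pmp22 and Mbp carried most of the Schwann cell sum. The sums thus do not rank the cell types. In bulk RNA, fewer cells of a type and less RNA per cell cannot be told apart.

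The promoters of Bgn and Aspn are shown because of how the levels of these genes lay. Bgn was lower in every DR library than in any AL library. Aspn was higher in every DR library than in AL replicates 1 to 4, but highest of all in AL replicate 5, and it did not pass the threshold. Each window holds the 250 bases before the RefSeq start (GRCm38.p6, gene strand, 5′ to 3′), at chrX:73483351-73483600 on the plus strand for Bgn and chr13:49544193-49544442 on the plus strand for Aspn. Capitals mark matches on either strand to TATAAA (the core of a TATA box), to CCAAT (the core of a CCAAT box) or to GGGCGG (a GC box).
Bgn: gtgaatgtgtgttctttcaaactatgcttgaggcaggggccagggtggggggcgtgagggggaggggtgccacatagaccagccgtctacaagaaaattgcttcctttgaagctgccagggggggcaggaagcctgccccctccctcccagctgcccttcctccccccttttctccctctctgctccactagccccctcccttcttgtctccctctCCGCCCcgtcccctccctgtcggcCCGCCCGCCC
Aspn: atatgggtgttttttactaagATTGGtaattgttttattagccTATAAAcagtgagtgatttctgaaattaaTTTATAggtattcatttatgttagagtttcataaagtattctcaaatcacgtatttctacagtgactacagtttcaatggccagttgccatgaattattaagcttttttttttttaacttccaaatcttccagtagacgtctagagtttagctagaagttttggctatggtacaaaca

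The Bgn window had a GC share of 64.4%, against a median of 52.4% over 32851 such windows, and 3 matches to the GC box, of which the last 2 overlap at the end of the window, next to the start. This motif was found in 32.7% of all windows. The Aspn window had a GC share of 30.0% and 98.4% of windows had a higher one. It held 2 matches to the TATA motif, found in 12.4% of windows, and 1 to the CCAAT motif, found in 33.8%. All of these lie toward the 5′ end of the window, away from the start. Neither window matched TGANTCA (the AP-1 motif), CACGTG (an E-box) or the palindromic glucocorticoid response element, which 6.75%, 6.02% and 0.00913% of windows held. Such matches describe letters and do not show that a factor binds. Of the 8 genes, 6 had an entry in the promoter table, and Dcn and Lum did not.

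Bgn encodes biglycan, a pericellular proteoglycan that binds collagen and TGF-beta family ligands and, when released, signals through Toll-like receptors. Its level was 149, 519, 299, 463 and 59.8 CPM in AL replicates 1 to 5, and 2.84, 8.86, 5.6 and 5.29 CPM in DR replicates 1 to 4. Every AL library lay above every DR library, although AL replicate 5 was below the other AL libraries. These levels rest on 1589 to 19097 reads per AL library and 79 to 296 per DR library. In edgeR's quasi-likelihood fit over all tested genes, in which a gene passed the threshold, or was called, at an adjusted p under 0.05, the log2 fold change was -5.71 (SE 0.67, 95% confidence interval -7.19 to -4.24), a 52.5-fold lower level in DR. Within AL alone the highest level was 8.69 times the lowest.

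Aspn encodes asporin, a class I relative of biglycan that binds collagen and TGF-beta1. Its level was 49.2, 31.9, 52.4, 47.2 and 186 CPM in AL replicates 1 to 5, and 90.7, 109, 117 and 137 CPM in DR replicates 1 to 4. AL replicates 1 to 4 lay below all DR libraries and AL replicate 5 above all of them, so the diets overlapped through that library alone. The log2 fold change was 0.63 (SE 0.44, interval -0.33 to 1.60), which did not pass the threshold. Without AL replicate 5 it was 1.33 and passed. The exons of Aspn share 7 bases with the antisense gene Cenpp in the GENCODE models, and Cenpp itself had means of 5.19 ± 1.04 (AL) and 2.71 ± 0.356 (DR) CPM (SD over 5 and 4 libraries). Without strand, reads from these shared bases cannot be assigned to either gene.

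The balance of these class I genes differed sharply between libraries. Per kilobase of annotated exon, Bgn was the most abundant of the 8 genes in AL replicates 1 to 4 and Aspn in AL replicate 5 and all DR libraries. The ratio of Aspn to Bgn on that scale was 0.854, 0.159, 0.455 and 0.264 in AL replicates 1 to 4, 8.06 in AL replicate 5, and 82.7, 31.8, 54.0 and 67.3 in DR replicates 1 to 4. Aspn made up 92.3% to 97.3% of the summed level of the 8 genes in DR, 84.0% in AL replicate 5 and 13.3% to 42.9% in the other AL libraries. That summed level was 48.7 to 102 CPM per kb in AL and 40.9 to 60.03 in DR. The lengths joined the exons of all annotated transcripts (6.099 kb for Bgn, 2.354 kb for Aspn). Ratios, shares and the order of genes per kilobase depend on that choice.

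**Figure D1:**
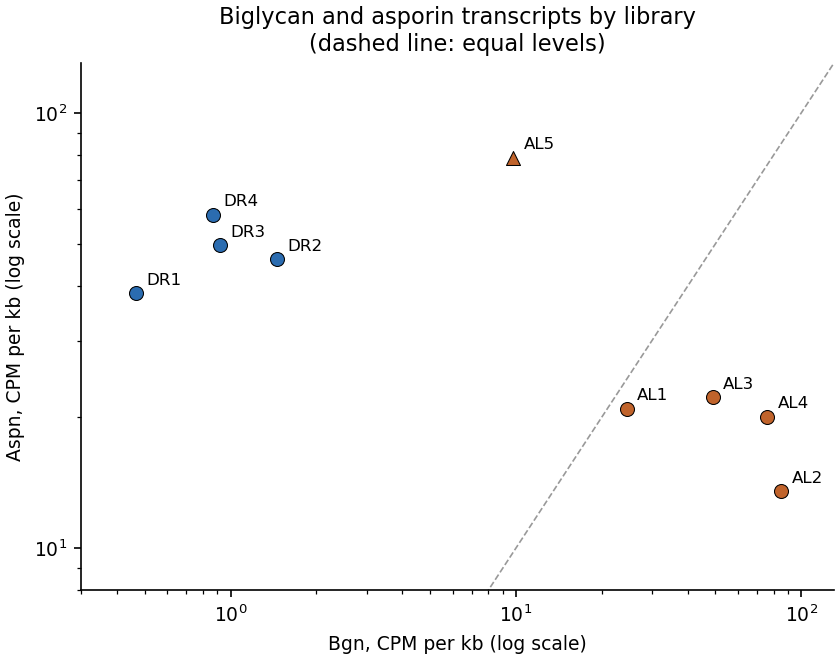
Level of Aspn (vertical, CPM per kb, log scale) against Bgn (horizontal, CPM per kb, log scale), with 1 point per library (orange AL, blue DR, triangle AL replicate 5). AL replicates 1 to 4 lie below the line of equal levels, the 4 DR libraries lie far above it, and AL replicate 5 lies on the DR side with an Aspn to Bgn ratio of 8.06.

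Other transcripts set AL replicate 5 apart in the same libraries. Mki67, the proliferation marker, stood at 149.9, 259, 126, 251 and 36.7 CPM in AL replicates 1 to 5 and at 6.47 to 15.4 CPM in DR. Cd34, the sorting antigen, stood at 1108, 531, 760, 975 and 2041 CPM in AL and at 414 to 630 CPM in DR. AL replicate 5 thus had the lowest Bgn and Mki67 and the highest Aspn and Cd34 of the AL libraries. The part of cell cycle state or of the sort in the levels of Bgn and Aspn was not tested.

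Dcn encodes decorin, which binds collagen, TGF-beta and the receptors EGFR and MET and is a main product of dermal fibroblasts. It was scarce here, at 1.91, 0.598, 0.369, 1.75 and 0.151 CPM in AL replicates 1 to 5 and 2.30, 3.23, 0.564 and 0.580 CPM in DR replicates 1 to 4. The values rest on 4 to 108 reads per library, and the diets overlapped. The log2 fold change was 0.81 (SE 0.70, interval -0.73 to 2.36). Dcn was highest in the libraries with the highest summed endothelial markers, which were 42.6 CPM in AL replicate 1, 17.5 in AL replicate 4, 84.3 in DR replicate 1 and 49.3 in DR replicate 2, against 3.35 to 11.7 CPM in the other libraries. Endothelium was not alone in this. Immune sums were also highest in AL replicate 1 and DR replicates 1 and 2 (54.4, 76.9 and 56.0 CPM, others 16.8 to 34.9). Adipocyte sums were highest in DR replicates 1 and 2 (72.7 and 46.9 CPM). Without AL replicate 1 and DR replicates 1 and 2, a choice made after seeing the data, the Dcn log2 fold change was -0.32. Those libraries held the highest Dcn levels of each diet, so the shift follows in part from the choice. Fbn1, a fibroblast marker, was also highest in AL replicates 1 and 4 and DR replicates 1 and 2 (1.73, 1.68, 1.47 and 1.83 CPM). It stood at 0.161 to 0.762 CPM in the other libraries. Of the same marker list, Clec3b was highest there too (0.614, 0.618, 0.791 and 0.868 CPM, others 0.190 to 0.484). So was Col3a1 (2.49, 0.927, 0.288 and 1.14 CPM, others 0 to 0.150). Fbln1, Thy1, Col1a2 and Loxl1, also fibroblast markers, did not follow that pattern. The part of endothelial, fibroblast or other admixed RNA in the Dcn level was not tested.

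**Figure D2:**
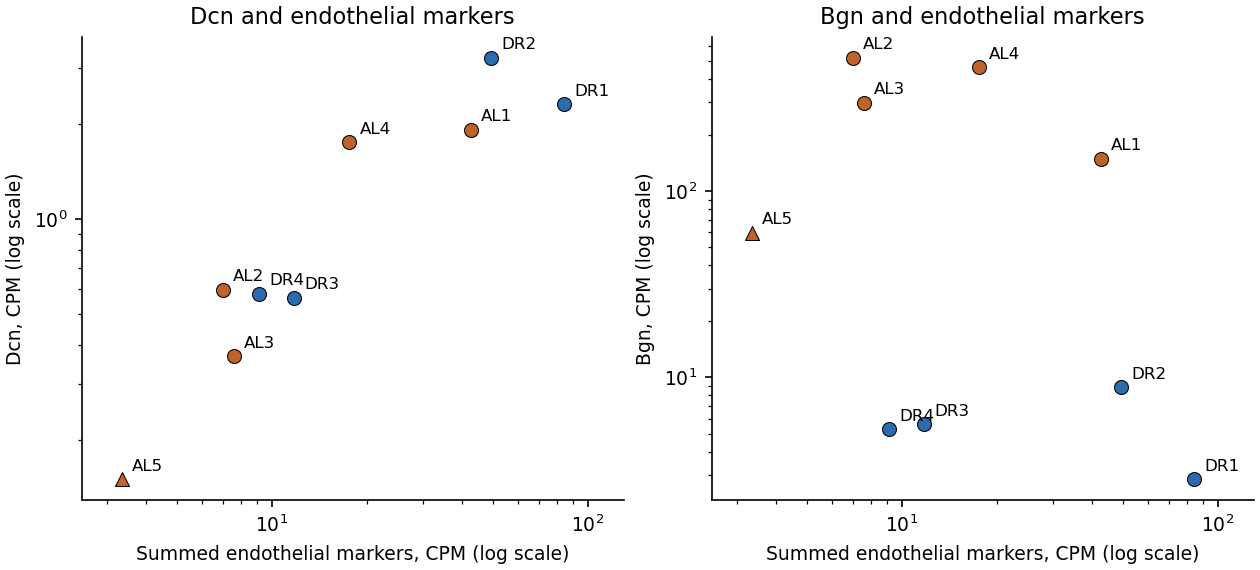
Dcn (left) and Bgn (right) in CPM on a log scale against the summed CPM of 10 endothelial markers on a log scale, 1 point per library (orange AL, blue DR, triangle AL replicate 5). Dcn reaches 1.75 CPM or more only in the 4 libraries with at least 17.5 CPM of endothelial markers. In the right panel each AL library lies above every DR library, a difference known when the genes were chosen. The part of endothelial RNA in either level was not tested.

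Among class II genes, Fmod encodes fibromodulin, a keratan sulfate proteoglycan of collagen fibrils that also binds TGF-beta. Its level was 5.13, 2.31, 2.65, 7.62 and 12.6 CPM in AL replicates 1 to 5 and 0.611, 1.08, 0.451 and 0.226 CPM in DR replicates 1 to 4. The diets did not overlap, and AL replicate 5, lowest for Bgn, was highest for Fmod. The log2 fold change was -3.33 (SE 0.60, interval -4.65 to -2.02), a 10.1-fold lower level in DR. The DR values rest on 7 to 36 reads per library.

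Prelp encodes PRELP, a protein that binds collagen and the heparan sulfate chains of perlecan and so can link basement membranes to connective tissue. Its level was 4.44, 7.92, 6.23, 9.06 and 5.04 CPM in AL replicates 1 to 5 and 3.74, 4.52, 1.47 and 1.45 CPM in DR replicates 1 to 4. DR replicate 2 reached above the lowest AL library, so the diets touched, and DR replicates 1 and 2 stood above DR replicates 3 and 4. The former are also the DR libraries with the higher endothelial sums, whose part in Prelp was not tested. The log2 fold change was -1.22 (SE 0.37, interval -2.04 to -0.41), a 2.33-fold lower level. It no longer passed the threshold without DR replicate 3 (-1.0) or DR replicate 4 (-1.01). Without AL replicates 1 and 5 and DR replicates 1 and 2, a choice made after seeing the data, it was -2.40. Those are the lowest AL and the highest DR libraries for Prelp, so a steeper value follows from the choice. An annotated antisense gene, Gm15851, shares 350 exon bases with Prelp but had 4 reads over all libraries.

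The other class II genes and osteoglycin were at the limit of detection. Lum, which encodes the keratan sulfate proteoglycan lumican, had 6, 1, 0, 8 and 0 reads in AL replicates 1 to 5 and 5, 6, 0 and 1 in DR replicates 1 to 4. A count of 0 allows up to 3 counts, which was 0.101 CPM in AL replicate 3 and 0.113 CPM in AL replicate 5 and in DR replicate 3, for counting error only. Omd, which encodes the bone-associated osteomodulin, had 4, 2, 0, 4 and 0 reads in AL and 6, 5, 2 and 8 in DR. Ogn, which encodes osteoglycin or mimecan, a regulator of collagen fibril assembly, had 4, 2, 2, 9 and 1 reads in AL and 8, 13, 1 and 6 in DR. No diet difference was detectable for these genes at this depth. Ecm2, Aspn, Omd and Ogn are neighbours in the RefSeq gene order, and of that run Aspn alone reached 1 CPM in any library.

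**Figure D3:**
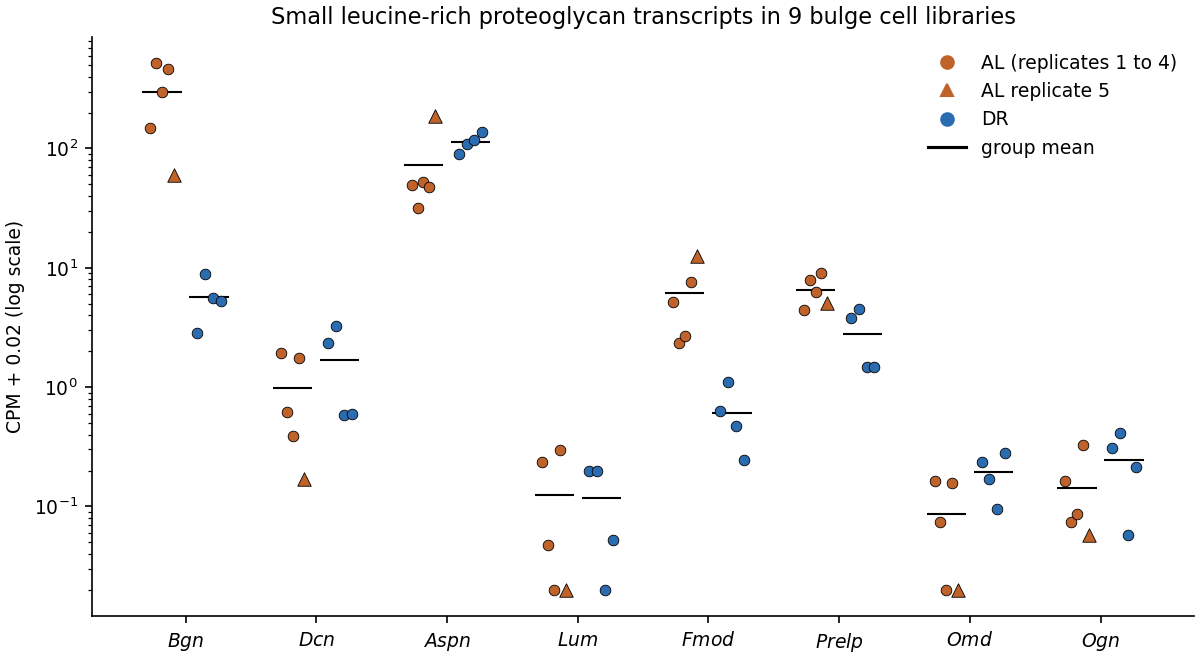
CPM plus 0.02 on a log scale for each of the 8 genes in the 5 AL libraries (orange, triangle for AL replicate 5) and the 4 DR libraries (blue), with black lines at the group means. Bgn and Fmod are lower in every DR library than in any AL library, AL replicate 5 is the highest library for Aspn and Fmod and the lowest AL library for Bgn and Dcn, and Lum, Omd and Ogn stay at or below 0.389 CPM.

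In the fit over all genes, 3 of the 5 tested members (Bgn, Fmod and Prelp) were called lower in DR and none was called higher. By that rule 40.7% of all tested genes were called, 21.7% lower and 19.0% higher. The CPM ranges of the diets did not overlap for 2 of the 5 tested members, Bgn and Fmod, nor for 32.9% of all tested genes. Since the members were chosen with this contrast known, nothing is read from those counts. The median log2 fold change over all tested genes was -0.02.

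Variation among AL libraries was itself large for these genes. The SD of log2(CPM + 0.5) over the 5 AL libraries was 1.29 for Bgn, 0.96 for Aspn, 0.93 for Fmod, 0.84 for Dcn and 0.40 for Prelp, against a median of 0.19 over the 15447 tested genes. Only 0.220% of tested genes had a larger AL spread than Bgn, and 1.40% had a larger one than Aspn. In DR the spread of Aspn was 0.25, against a median of 0.19 there, whereas that of Dcn was 0.93 and that of Prelp 0.72. The order of group means per kilobase in AL was Bgn (48.9 CPM per kb), Aspn (31.1), Fmod (1.84), Prelp (1.81), Dcn (0.164), Ogn (0.0477), Lum (0.0424) and Omd (0.0299). Along that order the AL ranges of neighbours overlapped except between Aspn and Fmod and between Prelp and Dcn. In DR the order was Aspn (48.2), Bgn (0.926), Prelp (0.773), Dcn (0.286), Fmod (0.179), Ogn (0.0884), Omd (0.0776) and Lum (0.0400), and neighbours overlapped except Aspn and Bgn.

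Of the 15 dermal fibroblast markers, 9 were tested, of which 5 fell in DR and 1 rose. Over all tested genes 21.7% were called lower and 19.0% higher. In every library 6 of the 15 were under 1 CPM. Among these Clec3b was tested, whereas Col3a1, at up to 2.49 CPM, was not tested. The markers that fell, as Bgn was lower, were Col1a1 (-3.34 on the log2 scale), Thy1 (-2.17), Loxl1 (-2.06), Col1a2 (-1.40) and Cd248 (-1.20). Pdgfra, a receptor of fibroblasts, rose (1.49, adjusted p = 0.013 by edgeR) and was highest in DR replicates 1 and 2 (3.81 and 5.27 CPM). The summed level was carried by Fbln1 (209.5 to 290.3 CPM in AL, 152 to 259 in DR), Col1a2 (30.5 to 71.8 and 15.6 to 25.1) and Col1a1 (36.5 to 63.9 and 2.1 to 9.35). AL replicate 2 had the highest Bgn level. In that library 10138 reads fell on Fbln1, 1538 on Col1a1, 1122 on Col1a2, 415 on Thy1 and 134 on Loxl1. A further 35 fell on Pdgfra, 30 on Cd248, 28 on Fbn1, 7 on Clec3b and 5 on Pi16. Col3a1, a major dermal collagen, had 2 reads there and Pdgfrb had 1. Dpt, Mfap5 and Twist2 had none there, and only 21, 10 and 2 reads over all libraries, so their absence says little. Col3a1 stood at 2.49, 0.0544, 0, 0.927 and 0.113 CPM in AL replicates 1 to 5 and at 0.0967 to 1.14 CPM in DR. The part of fibroblast RNA in the level of Bgn was not tested.

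By likeness of profile over the 9 libraries, the genes nearest to Bgn were Atp6v1b1, a proton pump subunit gene, Col14a1, a fibril-associated collagen, and Top2a, the topoisomerase of dividing cells. Their mean absolute differences from the centred Bgn profile were 0.38, 0.52 and 0.53 on the log2 scale. Nearest to Aspn were Anxa8 (0.25), which encodes an annexin, L1cam (0.28) and Rab11fip5 (0.29). Anxa8 stood at 1417, 805, 1280 and 1231 CPM in AL replicates 1 to 4, 2772 in AL replicate 5 and 3369 to 3515 CPM in DR. Nearest to Dcn were Kdr (0.24), which encodes the main VEGF receptor of endothelium, Sox18 (0.24) and Entpd1 (0.28). Nearest to Fmod were Kirrel2 (0.24), Tgm5 (0.34) and Phyhipl (0.36), and to Prelp Fbln2 (0.17), Itgb3bp (0.21) and Lmnb2 (0.21). With a pseudocount of 2 CPM in place of 0.5, Anxa8, L1cam and Rab11fip5 again came out nearest to Aspn, while Igfbp5 replaced Col14a1 for Bgn and Flrt3 replaced Sox18 for Dcn. For Fmod, Plxna2 and Glt8d2 replaced Tgm5 and Phyhipl, with Plxna2 nearest, and for Prelp none of the 3 was kept.

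Of 10 further SLRP genes, 7 were tested, of which 3 fell and 1 rose in DR. Tsku, which encodes tsukushi, a secreted modulator of BMP and Wnt signals, fell from 17.2 ± 7.97 to 6.86 ± 2.77 CPM (SD, n = 5 and 4; adjusted p = 0.015 by edgeR, log2 fold change -1.33 with SE 0.37). Chadl fell by 0.70 and Optc, at 1.22 CPM or less in all libraries, fell by 1.51 on the log2 scale, while Nyx, at 1.05 CPM or less, rose by 1.15. Ecm2, the neighbour of Aspn in gene order, stood at 0.418 ± 0.280 (AL) and 0.857 ± 0.197 (DR) CPM and did not pass (adjusted p = 0.069 by edgeR). Kera and Epyc had no read in any library. None of the 4 calls was made without AL replicate 1 and DR replicates 1 and 2, whereas 2 genes were called lower and 1 higher when AL replicate 5 was left out as well.

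**Figure D4:**
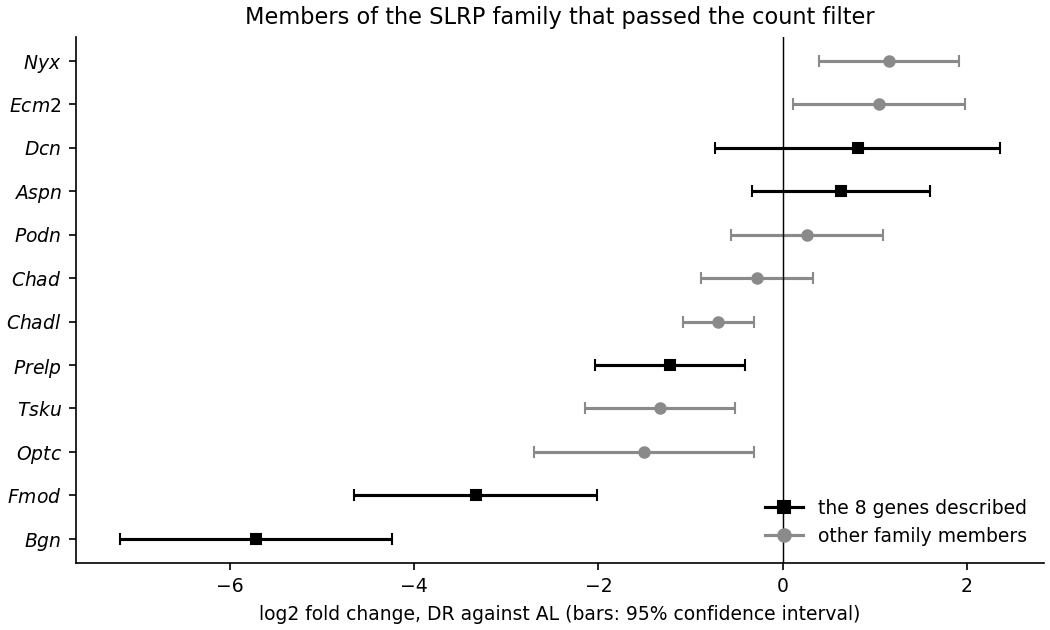
Log2 fold change of DR against AL (horizontal) with 95% confidence intervals for each SLRP gene that passed the count filter, black squares for the genes described here and grey circles for other family members. Bgn and Fmod lie farthest to the left at -5.71 and -3.33, and the intervals of Dcn, Aspn, Podn and Chad include 0. The intervals are not adjusted for the number of genes tested, and that of Ecm2 (0.12 to 1.98) leaves out 0 although Ecm2 did not pass. For the genes described here the intervals support nothing, since they were chosen with this contrast known.

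Glycosaminoglycan chains are built on SLRP cores in the Golgi, first a linker and then a repeating polymer that is sulfated. Of 21 tested genes of linker and chondroitin or dermatan sulfate synthesis, 11 fell and 4 rose in DR, with a median log2 fold change of -0.37. Chsy3, a chondroitin polymerase gene, fell from 18.2 ± 9.18 to 3.07 ± 0.746 CPM (adjusted p = 2.6e-04 by edgeR, log2 fold change -2.57 with SE 0.34), and Chsy1 fell by 0.94. Chst12, a chondroitin sulfotransferase gene, rose by 0.97 and Csgalnact2, which starts the chain, rose by 0.82, as did its paralog Csgalnact1 by 0.64 and the linker gene Xylt2 by 0.31. The count that fell was 7 without AL replicate 1 and DR replicates 1 and 2. Of 9 tested genes of keratan sulfate synthesis, 5 fell and none rose (median -0.71). Chst2, a sulfotransferase gene, fell from 5.97 ± 3.27 to 0.328 ± 0.195 CPM (adjusted p = 2.6e-04 by edgeR, -4.15 with SE 0.55), Chst5 by 1.43, B4galt4 by 0.76 and Fut8, which adds core fucose to N-glycans in general, by 0.71. The sialyltransferase gene St3gal1 fell by 1.71.

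Collagens are the main partners of SLRPs. Of 11 tested fibrillar, fibril-associated and type VI collagen genes, 8 fell and 1 rose in DR (median -1.40). Col14a1 stood at 11.3, 21.6, 14.0, 21.6 and 4.52 CPM in AL replicates 1 to 5 and at 0.0376 to 0.288 CPM in DR (adjusted p = 3.3e-05 by edgeR, log2 fold change -6.41 with SE 0.59). Col6a1 fell from 566 ± 144 to 178 ± 26.7 CPM (-1.67, SE 0.19), Col6a2 by 1.75 and Col1a1 by 3.34 on the log2 scale. Col11a2 rose by 0.79, and Col5a2 did not pass (0.64, adjusted p = 0.076 by edgeR). Col1a1 and Col1a2 are also fibroblast markers.

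Among other matrix proteoglycans, those of basement membranes were abundant in these cells. Per kilobase, Agrn (agrin) stood at 236 CPM in AL and 169 in DR, Col18a1 at 131 and 55.3, and Hspg2 (perlecan) at 34.3 and 18.2. Of 11 tested genes in that group 3 fell, namely Col18a1 (-1.25), Hspg2 (-0.92) and Agrn (-0.49), and Spock2, a testican, rose (3.87). Of 12 cell surface proteoglycans 6 fell and 1 rose. Gpc2 (-1.42), Sdc3 (-1.21) and Cd44, the hyaluronan receptor that can carry such chains (-1.17), fell, and Tgfbr3, the TGF-beta co-receptor betaglycan, rose (1.20). The count that fell was 3 without AL replicate 1 and DR replicates 1 and 2.

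SLRPs also bind growth factors and receptors. Of 21 such genes tested, 6 rose and 1 fell in DR (median 0.28). P2rx7 rose by 0.93 and Igf1r by 0.91, and Egfr, a decorin receptor, rose from 376 ± 26.9 to 557 ± 43.0 CPM (adjusted p = 0.0011 by edgeR, log2 fold change 0.57 with SE 0.10). Tgfb3 fell by 1.26 on the log2 scale. Tlr4 (1.63) and Tlr2 (0.73), receptors of free biglycan that immune cells also express, rose, and so did Tgfbr2 (0.28), a TGF-beta receptor. Of 10 tested proteases that process or cut SLRPs, the gelatinase gene Mmp2 rose (0.68) and Mmp3, at under 1 CPM, fell by 2.27. Bmp1, which trims the biglycan propeptide, did not pass (0.22, adjusted p = 0.088 by edgeR).

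**Figure D5:**
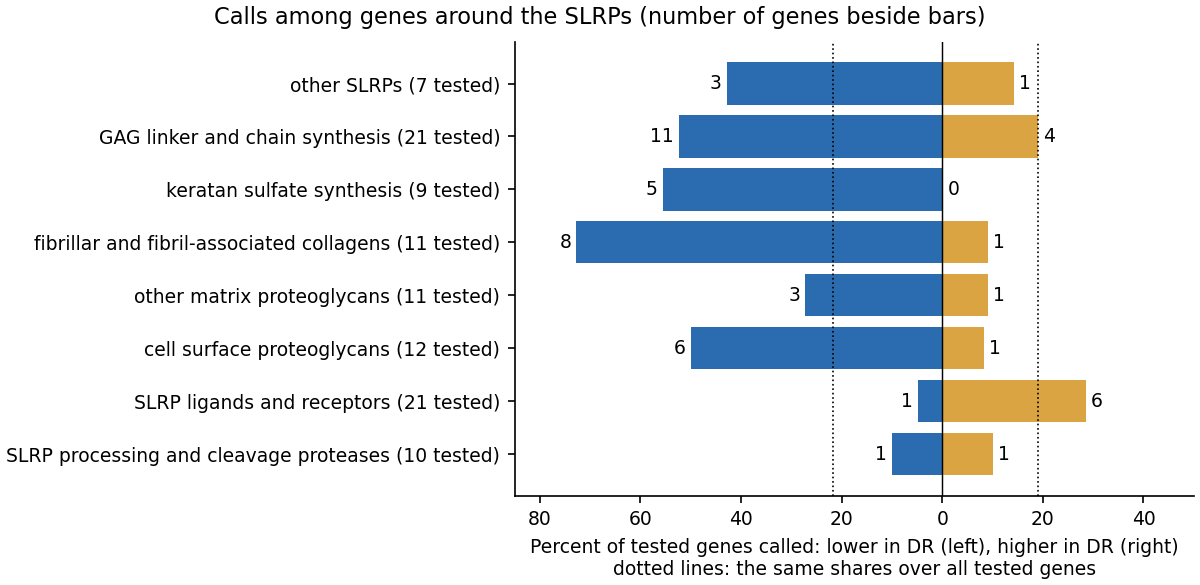
Share of tested genes called in 8 lists of genes around the SLRPs, in percent, lower in DR to the left and higher to the right, with the number of genes beside each bar and dotted lines at the shares over all tested genes (21.7% and 19.0%). The collagens have the largest share called lower (8 of 11), and the ligands and receptors have 6 of 21 called higher and 1 called lower.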

How the data were processed

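RNA of sorted bulge cells was sequenced as single reads of 51 cycles from TruSeq RNA v2 libraries, a kit that does not mark strand. The authors deposited whole-number read counts per gene symbol, 1 table per library, without normalization. The mm9 build, HTSeq 0.11.2, TopHat2 2.1.0, Bowtie and FastQC 0.11.5 are named in the submitters' processing notes, and the role of each was not stated in what was used here. No annotation or strand setting is stated in the sources used here. Lines that name no gene (6 per table, 25.9% to 30.7% of reads) were left out.

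Genes were tested with edgeR 4.0.16 (R 4.3.3): filterByExpr, TMM, a quasi-likelihood fit on diet, and Benjamini-Hochberg adjustment over all tested genes, with a threshold of 0.05. Levels are CPM after TMM. The SE of a fold change was derived from its F statistic. Levels per kilobase use the exon union of GENCODE M21 (GRCm38), which is not the build of the counts. The test was checked on simulated counts. Libraries of 1 group differed beyond counting noise in every pair (chi-square over its degrees of freedom 24.6 to 110), so none was taken for a copy of another, which does not show that they came from separate pools.

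The 8 members and the 18 gene lists, 10 of them of cell type markers, were chosen with earlier results of these data known. The rule for named genes took all members and up to 4 genes with the smallest p past the threshold in each list. It also took the most abundant dermal fibroblast markers and the 3 genes nearest in profile to each tested member (mean absolute difference of centred log2(CPM + 0.5)). For the other marker lists sums are given, with some of their genes named. For the bulge these are Krt15 and the sorting antigens Cd34 and Itga6. Krt5, Postn and Krt14 were more abundant than those antigens. Ecm2, Podn, Chad, Xylt2, Csgalnact1, St3gal1, Col5a1, Col5a2, Col11a2, Tgfbr2, Tlr2, Tlr4, Igfbp5, Flrt3, Plxna2, Glt8d2, Bmp1, Thy1, Loxl1, Cd248, Twist2, Mki67, Pdgfra, Col3a1, Dpt, Mfap5, Cenpp and Gm15851 were named after their values were seen. The same holds for Fbn1, Clec3b, Pi16, Pdgfrb, Krt5, Krt14, Postn, Mitf, Tyr, Mlana, Trps1, Myl9, Ngfr, Pmp22 and Mbp. Alternatives were DESeq2 1.42.0 size factors and Wald test, upper-quartile scaling, library size only, other filters, limma-voom (limma 3.58.1) with and without quality weights, a robust fit, a replicate block and leaving out each library.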

Additional observations from a re-analysis of the deposited data

Results flagged for a closer look

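Aspn in AL replicate 5 stood at 186 CPM, far from the other AL libraries at 31.9 to 52.4 CPM, by a rule on the gap to the nearest library relative to the group's range. Of 16 groups of values tested (8 genes in each diet) this was the only one set apart, and chance sets apart about 5% of such groups. Fmod was highest in the same library at 12.6 CPM, and Bgn was lowest of AL there at 59.8 CPM, but neither was set apart by that rule.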

How the results depend on the processing

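Over 21 alternatives (19 planned, 2 added after seeing the data), the log2 fold change of Bgn ran from -6.29 to -5.40 and that of Fmod from -4.22 to -2.79, and both passed the threshold in all 21, which supports nothing, since the genes were chosen with this contrast known. Prelp ran from -2.40 to -1.0 and passed in 19, all but those without DR replicate 3 or 4. Aspn was above 0 in all 21 (0.45 to 1.54) and passed in 4, namely with quality weights (1.15), with the replicate block (1.34), without AL replicate 5 (1.33) and without AL replicates 1 and 5 and DR replicates 1 and 2 (1.54). No DR library bears the number 5, so the block too keeps AL replicate 5 from adding to the diet estimate. Those 4 settings are thus not separate evidence on Aspn. Dcn passed in none and was above 0 in 19. It turned to -0.32 without AL replicate 1 and DR replicates 1 and 2 and to -0.64 with AL replicate 5 left out as well; the cause was not tested. The number of genes called, 6290, was 5176 to 6402 when 1 library was left out. Libraries of the diets that share a replicate number were little alike (correlations of same-numbered deviations -0.01, 0.14, 0.28 and 0.06). Only DR replicate 3 had the AL library of its own number as its best match. Such correlations cannot exclude a batch shared by number. With the numbers as a replicate block 6433 genes were called. Of 336 counts for the gene lists, 293 stayed within 1.5 times. Without AL replicates 1 and 5 and DR replicates 1 and 2, the genes called lower were 7 of linker and chain synthesis (11 with all libraries), 3 cell surface proteoglycans (6) and 5 matrix proteoglycans (3). The first 2 counts were also 7 and 3 with AL replicate 5 kept, and the block gave 5 matrix proteoglycans. The other counts that moved were at most 3 with all libraries. With 4 to 108 reads of Dcn per library and at most 13 of Lum, Omd or Ogn, depth limits what these genes can show.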

Other observations

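Matrix genes that were lower in DR varied in where AL replicate 5 stood among the AL libraries. Of 38 genes called lower in the lists of enzymes, collagens, proteoglycans, ligands and proteases, AL replicate 5 was the highest AL library for 12 and the lowest for 13. For the rest it lay between. Nothing particular to matrix genes is read from these counts, and the shares over all genes are given below. Those at their highest there included Chsy3 (34.0 CPM, other AL libraries 11.3 to 17.6), Col6a1 (775 CPM, others 411 to 619), Col6a2 (286 CPM, others 141 to 218) and Col1a2 (71.8 CPM, others 30.5 to 59.6), as for Fmod. Those at their lowest there included Col14a1 (4.52 CPM, others 11.3 to 21.6), Chst2 (1.84 CPM, others 4.86 to 10.4), St3gal1 (3.95 CPM, others 8.78 to 16.0) and Col5a1 (32.6 CPM, others 49.5 to 102), as for Bgn. Among all 3349 genes called lower, AL replicate 5 was the lowest AL library for 38.9% and the highest for 21%. Among the 2941 called higher it was the highest for 36.0%, as for Aspn, which was not called. Among the 9157 genes not called the shares were 23.8% lowest and 25.2% highest.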
